A study of Macaca mulatta with 28 samples.

Results

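SIRPB1 is listed with reads in some macaques of the study and with almost none in others. The animals of each group were chosen by the deposited SIRPB1 value, in normalized reads: 16 of 28 animals had a value of at least 10 and are called animals with SIRPB1 reads, and 12 of 28 had a value under 5 and are called animals without SIRPB1 reads. No animal lay between the limits. The value chose the groups, so SIRPB1 itself is described without a test. A normalized read is a read over a gene's exons after scaling by the library's upper-quartile factor.

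The material was total RNA of a tissue block dissected so as to hold the amygdala's central nucleus (CeA), from male rhesus macaques with no genotype given, 1 library per animal. All had been induced to drink 4% (w/v) ethanol over about 90 days and then drank it by choice for more than 12 months, 22 hours a day, so neither group is free of ethanol. The labels put the animals in 4 cohorts. Cohort 4 averaged 8.24 years of age at induction and 9.98 years at the end, cohort 5 averaged 5.63 and 7.15 years, cohort 7a averaged 4.18 and 5.7 years, and cohort 7b averaged 5.69 and 7.18 years. They also put them in 4 drinking categories. Binge drinkers (BD) took at least 2 g/kg on 55% of days with 80 mg/dl of ethanol in blood. Heavy drinkers (HD) took at least 3 g/kg on 20% of days. Very heavy drinkers (VHD) had a daily mean above 3 g/kg and exceeded 4 g/kg on 10% of days. Low drinkers (LD) met none of these definitions. The animals with SIRPB1 reads were 6 LD, 5 BD, 1 HD and 4 VHD, and the animals without were 4 LD, 0 BD, 6 HD and 2 VHD.

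SIRPB1 belongs to the signal-regulatory proteins (SIRPs), a family of immunoglobulin-like receptors encoded side by side in the genome. In humans, SIRPA is an inhibitory receptor of myeloid cells and neurons that binds CD47, a "do not eat me" signal on other cells, and recruits the phosphatases PTPN6 and PTPN11. SIRPB1 lacks that inhibitory tail and instead pairs with the adaptor TYROBP (DAP12), which activates myeloid cells such as microglia, the macrophages of the brain. SIRPA and SIRPB1 are close in sequence, so the assignment of a read to one or the other depends on the settings of mapping and counting, which the sources used here do not give.

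Depth, counted as reads on gene exons, was 1910514 to 25928489 (median 16236312.5) in libraries with SIRPB1 reads and 7412823 to 23705301 (median 16684571.5) in those without. As a check of the tissue, all 18 genes of a list of CeA peptides and receptors were tested, and their summed level was 9249 to 36942 normalized reads in animals with SIRPB1 reads and 9523 to 48088 in animals without. PRKCD, a kinase of one class of CeA neurons, had 174 to 865 (median 465) normalized reads in animals with SIRPB1 reads and 260.5 to 917 (median 566) in animals without. Genes of the list were therefore detected in both groups. The sum cannot tell the CeA from adjacent striatum, because it holds PENK, the enkephalin precursor, which is also in the striatal list below. PENK alone reached 24439 normalized reads in animals with SIRPB1 reads and 32856 in animals without. Genes of adjacent tissue also varied between blocks, as given below.

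SIRPB1 had 19.3 to 99.5 normalized reads (median 50.7, mean 58.4 ± 24.3, SD, n = 16) in the animals with SIRPB1 reads. The animals without had 0 to 1.30 (median 0, mean 0.275 ± 0.508, SD, n = 12). The animals nearest to the limits were VHD replicate 2, with 19.3, and HD replicate 4, with 1.30. Summed over libraries, 954 of 245607398 reads fell on SIRPB1 in animals with SIRPB1 reads, or 3.88 CPM (95% exact Poisson interval 3.64 to 4.14). In the animals without, 3 of 192639221 reads did, or 0.0156 CPM (0.00321 to 0.0455). Both intervals cover counting error only, and the distance between the groups was set by the limits. In the libraries without SIRPB1 reads, 9 held 0 reads of the gene and 3 held 1 read each. A count of 0 allows up to 3 reads, which was worth 1.96 to 6.10 normalized reads in these libraries. The level was low even where it was present: no library held more than 139 reads of the gene.

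**Figure D1:**
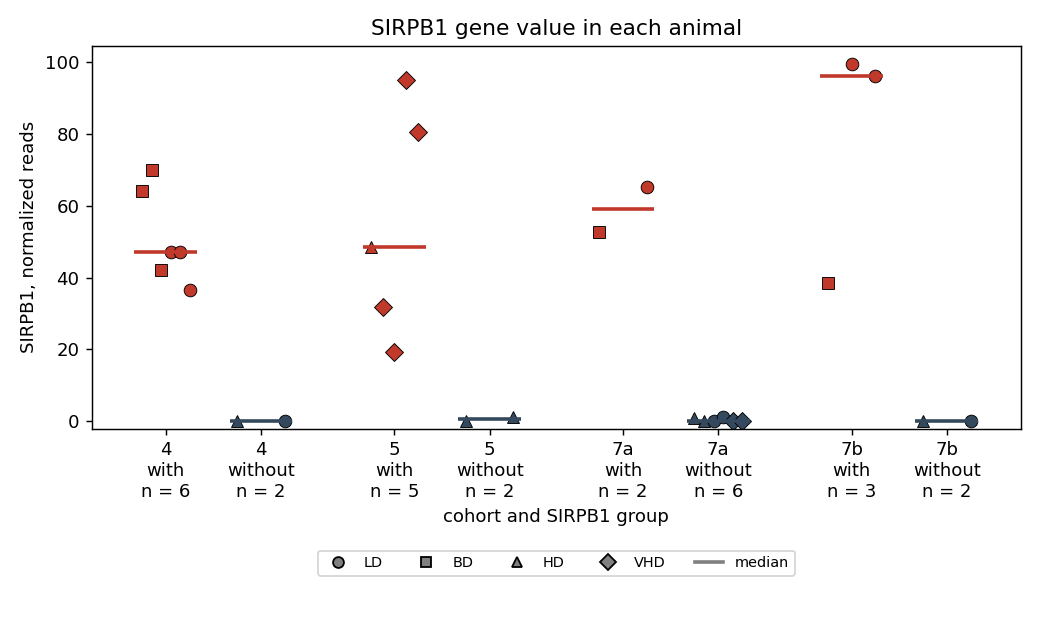
SIRPB1 gene value of each animal in normalized reads, by cohort and by group, with animals with SIRPB1 reads (red) left of animals without (dark). Marker shapes give the drinking category and horizontal lines the medians. The red points lie between 19.3 and 99.5 and the dark ones between 0 and 1.30, in all 4 cohorts.

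Both kinds of animal occurred in every cohort. Cohort 4 had 6 animals with SIRPB1 reads and 2 without, cohort 5 had 5 with and 2 without, cohort 7a had 2 with and 6 without, and cohort 7b had 3 with and 2 without. Among the animals with SIRPB1 reads, the mean was 51.2 ± 13.0 normalized reads in cohort 4 (SD, n = 6), 55.0 ± 32.0 in cohort 5 (n = 5), 58.9 ± 8.76 in cohort 7a (n = 2) and 78.0 ± 34.3 in cohort 7b (n = 3). These means lay within the spread between animals. By drinking, 5 of 13 heavy animals (HD and VHD) and 11 of 15 low animals (LD and BD) had SIRPB1 reads. All 5 of the heavy ones belonged to cohort 5, which held no LD or BD animal. In cohorts 4, 7a and 7b, 0 of 6 heavy animals had SIRPB1 reads. The main fits below hold cohort but no drinking term. Differences between the groups therefore cannot be fully told apart from drinking. No test was made of these counts, because an earlier comparison of heavy with low drinkers in the same libraries was what drew attention to SIRPB1.

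The reads did not cover the gene. Of 5 listed SIRPB1 exons on chromosome 15, the exon of 354 bases (chr15:34392488-34392841, in the coordinates of the deposited exon table, whose genome build is not given in the sources used here) held 99.4% of the exon reads in animals with SIRPB1 reads. That exon had 19 to 99 normalized reads (median 50.5) in animals with SIRPB1 reads and 0 to 1 in animals without. The exon of 318 bases (chr15:34389380-34389697) had a sum of 4 normalized reads over the 16 animals with SIRPB1 reads and 2 over the 12 without. The exon of 333 bases (chr15:34388463-34388795) had 2 in animals with SIRPB1 reads and 0 in animals without. The longest exon, of 1590 bases (chr15:34381965-34383554), and the exon of 175 bases (chr15:34400798-34400972) were at 0 in all 28 animals. The values of the table therefore go against calling the animals expressors of a whole SIRPB1 transcript, and the groups are named here by their reads. Of the other SIRP genes of the region, SIRPB2 was detected in both groups, as given below, and SIRPD and SIRPG were hardly detected. SIRPD reached 1.45 normalized reads in animals with SIRPB1 reads and 3.29 in animals without, and SIRPG reached 1.45 in animals with SIRPB1 reads and 2.03 in animals without.

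SIRPA, the inhibitory relative, was far more abundant and also has exons of 354, 318 and 333 bases, the lengths of the 3 SIRPB1 exons in which any read was listed. The SIRPA gene had 4168 to 6128 normalized reads (median 5209, mean 5112 ± 664, SD, n = 16) in animals with SIRPB1 reads, against 4264 to 7508 (median 5261, mean 5458 ± 951, n = 12) in animals without. The groups overlapped, and with cohort as a term the fitted fold was 0.965 (95% interval 0.848 to 1.10, limma adjusted p = 0.928). A single SIRPA exon stood apart from this. The exon of 354 bases (chr15:34739738-34740091) had 183 to 476 normalized reads (median 368.5, mean 354 ± 90.3) in animals with SIRPB1 reads and 379 to 696 (median 469, mean 509 ± 88.5) in animals without, and 16 of 16 animals with SIRPB1 reads lay below the mean of those without. The fold of its level was 0.721 (0.592 to 0.878), with p = 0.00203 before and 0.963 after adjustment by limma over 112705 exons. Relative to the other exons of SIRPA, its use had a fold of 0.730 (0.628 to 0.848), with an unadjusted p of 0.000181, which ranked 10 among 109212 exons, and a limma adjusted p of 0.99995. By limma's diffSplice, which uses 1 spread per gene, its unadjusted p was larger, at 0.0150 (log2 −0.53). It thus passed none of these tests over all exons.

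The 2 SIRPA exons that follow in the table, of 318 and 333 bases, offer a scale within each library. As a percentage of their sum, the 354-base exon stood at 18.8% to 38.1% (median 32.9%, mean 30.5% ± 5.95, SD, n = 16) in animals with SIRPB1 reads and at 35.4% to 55.1% (median 42.3%, mean 43.1% ± 5.43, n = 12) in animals without. The difference of means was −12.6 percentage points, with p = 0.000219 in an exact two-sided permutation test within cohorts (164640 arrangements, smallest possible p 6.07e-06). In cohort 4 the means were 29.2% in animals with SIRPB1 reads and 41.5% in animals without, in cohort 7a 34.4% with and 45.6% without, and in cohort 7b 27.6% with and 44.6% without. In these 3 cohorts the groups did not overlap. In cohort 5 the means were 32.4% with and 35.8% without, and the groups overlapped. This percentage was chosen after its values were seen and stands for 1 exon among many, so its p has no adjustment for that choice. The SIRPA exon is also not free of the value that defined the groups if reads of the 2 similar genes were exchanged in counting, which was not tested.

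**Figure D2:**
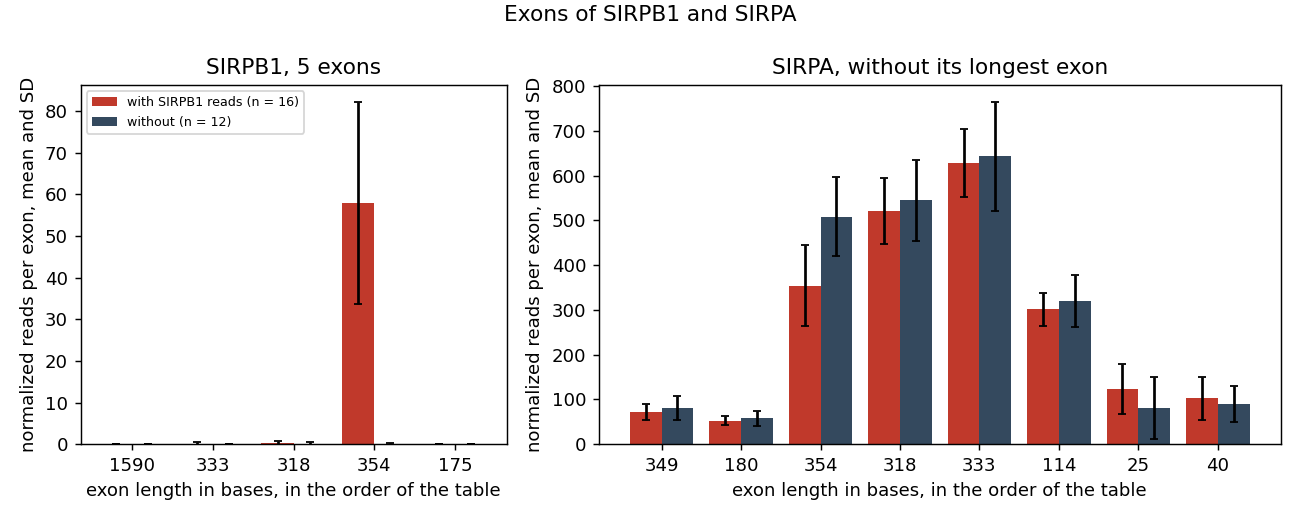
Mean normalized reads per exon with the SD between animals, for the 5 SIRPB1 exons (left) and for the SIRPA exons other than the longest one (right), in animals with SIRPB1 reads (red, n = 16) and without (dark, n = 12). In SIRPB1 the signal sits on the 354-base exon. In SIRPA the 354-base exon has a mean of 354 in animals with SIRPB1 reads and 509 in animals without.

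Adding the SIRPB1 and SIRPA exons of 354 bases left a difference. Their sum was 35.6% ± 4.81 of the next 2 SIRPA exons in animals with SIRPB1 reads and 43.1% ± 5.46 in animals without, a difference of −7.49 points, given without a test because the sum holds the SIRPB1 reads that chose the groups. In cohort 5, however, the sum was 37.1% in animals with SIRPB1 reads and 35.8% in animals without. SIRPB1 made up 4.03% to 34.2% (median 13.5%) of the 2 exons together in animals with SIRPB1 reads, and at most 0.213% in animals without. Among the 16 animals with SIRPB1 reads, a higher log2(SIRPB1 value + 1) went with a lower SIRPA exon percentage (Pearson r = −0.545, permutation p = 0.0294, adjusted over 5 relations 0.147, and Spearman rho = −0.612, p = 0.0139, adjusted 0.0693). This is a description, since the SIRPB1 value had also chosen these animals, and neither adjusted p was under 0.05. Within cohort 4 (n = 6) r was −0.476, and without the 2 animals farthest from the median on the x axis r was −0.461 (permutation p = 0.0980).

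**Figure D3:**
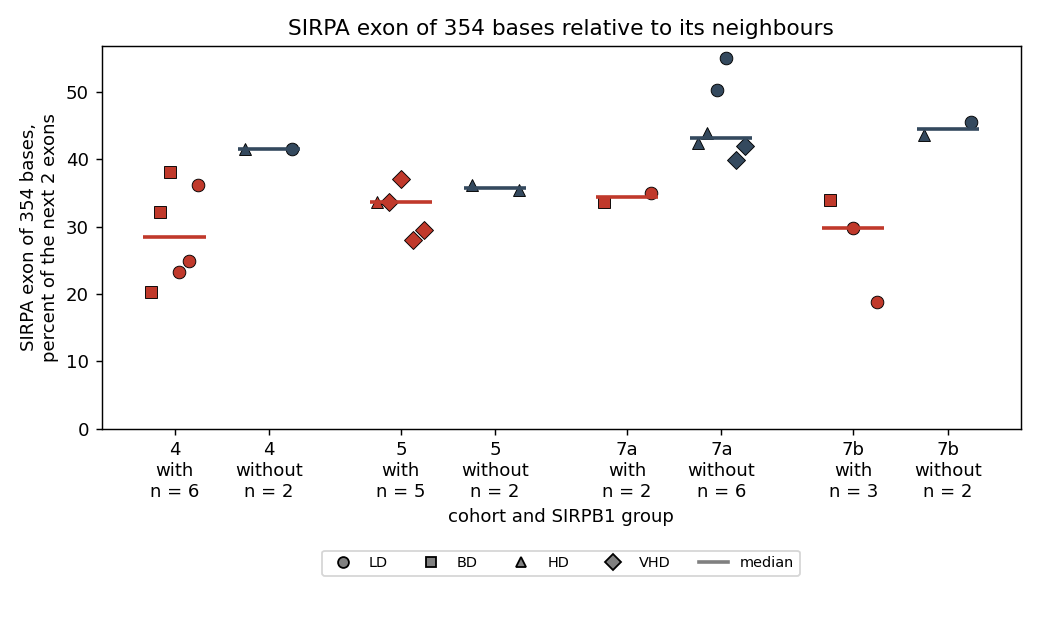
The SIRPA exon of 354 bases as a percentage of the next 2 SIRPA exons in each animal, by cohort and group, with animals with SIRPB1 reads (red) left of animals without (dark). Marker shapes give the drinking category and lines the medians. Red and dark points do not overlap in cohorts 4, 7a and 7b and overlap in cohort 5.

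Each SIRPA exon was split at its widest gap between animals on the log2 scale, a cut that always yields 2 levels. The gap was largest, at 1.26, for the exon of 25 bases, whose levels did not follow the SIRPB1 groups closely. The exon of 25 bases (chr15:34752800-34752824) had 26 to 49 normalized reads in 12 animals and 119 to 222 in 16, and the higher level was found in 12 of 16 animals with SIRPB1 reads and in 4 of 12 without. Its fold was 1.64 (0.923 to 2.92), with an unadjusted limma p of 0.0887. The exon of 40 bases (chr15:34759782-34759821) had a gap of only 0.43, near the 0.34 of the 354-base exon. Separate levels are therefore not shown for it. It had 43 to 86 normalized reads in 20 animals and 116 to 185 in 8. The higher values were found in 5 of 16 animals with SIRPB1 reads and in 3 of 12 without. The other SIRPA exons apart from these and the 354-base one had level folds of 0.906 to 0.988.

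Partners of the SIRP receptors did not pass the test. CD47, the ligand of SIRPA, had a fold of 1.03 in animals with SIRPB1 reads against those without, and SIRPB2 one of 1.06 (0.750 to 1.50). SIRPB2 had 15.1 to 56.1 normalized reads (median 25.9) in animals with SIRPB1 reads and 10.3 to 38.9 (median 23.0) in animals without. THBS1, thrombospondin 1, which also binds CD47, had 205 to 913 normalized reads (median 280.2) in animals with SIRPB1 reads and 149.8 to 1066 (median 235) in animals without, a fold of 1.33 (0.922 to 1.93). TYROBP, the adaptor through which human SIRPB1 signals, had 81.0 to 173 normalized reads (median 116) in animals with SIRPB1 reads and 70.7 to 151 (median 109) in animals without, a fold of 0.987 (0.801 to 1.22). Of 19 tested genes of TYROBP-coupled receptors and their partners, 0 passed, 5 had positive and 14 negative differences, and the median log2 difference was −0.09. TREM2, another receptor that signals through TYROBP, had the smallest p of that list, with 40.1 to 91.7 (median 61.7) normalized reads in animals with SIRPB1 reads and 49.0 to 96.2 (median 75.7) in animals without, a fold of 0.785 (0.632 to 0.973, adjusted p = 0.868). CD300E, an activating receptor of monocytes, had a fold of 1.64 (0.865 to 3.11) and VAV3, a signalling exchange factor, one of 0.882. The phosphatases downstream of SIRPA, PTPN6 and PTPN11, had folds of 0.95 and 1.02.

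Across the whole table, no gene was called. By limma on log2(value + 1) with cohort as a term, 0 of 13021 tested genes (0%) passed at 0.05 after adjustment, the lowest adjusted p being 0.868. Before adjustment, 597 genes (4.58%) had p under 0.05, with 314 higher (2.41%) and 283 lower (2.17%), while 651 would be reached by chance. That number moved with the setting, with 0 genes called in each of the following. It was 1082 (lowest limma adjusted p 0.109) without the shallowest libraries, LD replicate 1, HD replicate 1 and BD replicate 1. With heavy or low drinking as a term it was 1190 (lowest limma adjusted p 0.205), and without the cohort term 283. edgeR's quasi-likelihood test and DESeq2 called 0 genes each, with 568 and 666 genes at p under 0.05 before adjustment. In simulated data for this comparison over 13021 genes, limma recovered 90.5% of 2-fold changes. Recovery of changes smaller than 2-fold was not tested. The 95% intervals of 93.3% of genes stayed inside a fold of 2 up or down.

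**Figure D4:**
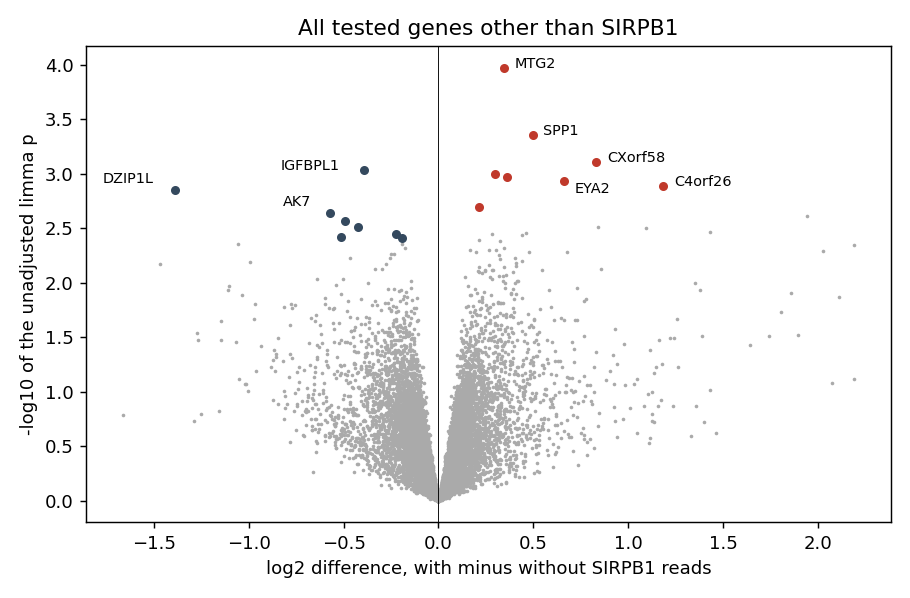
Log2 difference with minus without SIRPB1 reads (x axis) against −log10 of the unadjusted limma p (y axis) for the 13021 tested genes, SIRPB1 left out. Coloured points are the 8 higher (red) and 8 lower (dark) genes with the smallest p, some of them labelled. None passed the adjusted threshold.

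The genes with the smallest p are given as values, since none passed. MTG2, a GTPase of the mitochondrial ribosome (chr15:2162465-2181311), had 262 to 409 normalized reads (median 314) in animals with SIRPB1 reads and 199 to 321 (median 265) in animals without, a fold of 1.27 (1.14 to 1.42). The groups overlapped, and 15 of 16 animals with SIRPB1 reads were above the mean of those without. SPP1, the secreted protein osteopontin, had 3458 to 8386 (median 4662) normalized reads in animals with SIRPB1 reads. Animals without had 2322 to 5401 (median 3637). Its fold was 1.41 (1.18 to 1.68), and 14 of 16 animals with SIRPB1 reads were above the mean of those without. The cell type behind its level was not tested. CBR1, a carbonyl reductase, had 1187 to 1713 (median 1377) in animals with SIRPB1 reads and 915 to 1597 (median 1163) in animals without, a fold of 1.23 (1.10 to 1.38), with 16 of 16 above that mean. EYA2, a transcriptional coactivator with phosphatase activity (chr15:17289730-17590313), had a fold of 1.58 (1.22 to 2.04), MGMT, a DNA repair enzyme, one of 1.28, and FAM108B1, a depalmitoylating enzyme, one of 1.16. CXorf58, with 10.2 to 28.1 normalized reads in animals with SIRPB1 reads and 4.07 to 21.3 in animals without, had a fold of 1.78. C4orf26, a gene of tooth enamel, had 3.97 to 32.1 (median 6.73) in animals with SIRPB1 reads and 1.23 to 7.54 (median 3.31) in animals without. It entered the test only through animals with SIRPB1 reads, as no animal without reached 10 normalized reads. Its fold of 2.27 (1.42 to 3.63), close to the detection limit, is therefore no support for a difference.

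In the other direction, IGFBPL1, an insulin-like growth factor binding protein relative, had 139 to 312 normalized reads (median 208) in animals with SIRPB1 reads and 164 to 437 (median 207) in animals without, a fold of 0.761 (0.654 to 0.885) once cohort was a term. Its medians were thus nearly equal without regard to cohort, and it passed in 1 alternative, with array weights and robust priors (limma adjusted p = 0.050). DZIP1L, a protein of the ciliary base, had 0 to 11.2 (median 3.80) in animals with SIRPB1 reads and 2.47 to 32.4 (median 7.71) in animals without, a fold of 0.382 (0.219 to 0.666) close to the detection limit. Both medians lay under the filter of 10, and the highest values were in animals without SIRPB1 reads. The fold of DZIP1L is therefore no support for a difference. AK7, an adenylate kinase of motile cilia, had 46.5 to 135 (median 88.3) in animals with SIRPB1 reads and 66.2 to 172 (median 117) in animals without, a fold of 0.673 (0.529 to 0.857). CCDC3, a secreted protein, had a fold of 0.700, KDM4D, a histone demethylase, one of 0.711, TMOD1, which caps actin filaments, one of 0.747, MAP2K6, a kinase that activates p38, one of 0.856, and FAM115A, a partner of TRP channels, one of 0.877. Each of these 16 genes had the same sign in all 4 cohorts, which their choice by p in a fit over these cohorts favours. For MTG2 the log2 differences ranged from 0.09 in cohort 7a to 0.74 in cohort 4, and for CBR1 from 0.05 in cohort 7a to 0.47 in cohort 4.

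None of the genes beside SIRPB1 was called. Of the 10 listed genes on each side, 15 were tested, 0 were called, and 0 had an unadjusted p under 0.05, against 4.58% of all tested genes. Their folds ran from 0.697 for RAD21L1, a cohesin subunit of meiosis, to 1.53 for TGM3, a transglutaminase, with a median log2 difference of −0.05. PDYN, which encodes the opioid peptide precursor prodynorphin and lies 402 kb away, had 484 to 1464 normalized reads (median 1113) in animals with SIRPB1 reads and 483 to 2265 (median 978) in animals without, a fold of 0.960 (0.706 to 1.30). NSFL1C, a cofactor of the ATPase p97, had a fold of 1.03 and STK35, a kinase, one of 0.971.

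Markers of the myeloid cells in which SIRPB1 is known from humans did not pass the test. In a bulk sample, fewer cells of a type and less RNA per cell cannot be told apart. Of 24 tested microglial genes 0 passed, 7 had positive and 17 negative differences, and the median log2 difference was −0.03, against −0.00 over all tested genes. Their summed level was 6344 to 9875 normalized reads in animals with SIRPB1 reads and 5688 to 9187 in animals without. After TREM2, the smallest p were those of TMEM119, a microglial membrane protein, and GPR34, a lysophospholipid receptor. TMEM119 had 2.24 to 23.6 normalized reads (median 11.7) in animals with SIRPB1 reads and 1.23 to 56.1 (median 23.2) in animals without, a fold of 0.619 (0.334 to 1.15). All 16 animals with SIRPB1 reads lay below the mean of those without, but in cohort 7b its log2 difference was 1.15. GPR34 had a fold of 0.933 (0.812 to 1.07), and the purine receptor P2RY12 and growth factor receptor CSF1R had 0.971 (0.856 to 1.10) and 0.993 (0.864 to 1.14). The direction of the list was not shared by the cohorts: 2 of 24 genes were higher in animals with SIRPB1 reads in cohort 4 and 21 of 24 in cohort 5. Of 9 tested perivascular macrophage genes, 2 had positive and 7 negative differences with a median of −0.03. STAB1, a scavenger receptor, had the smallest p of that list, with 236 to 665 normalized reads (median 361) in animals with SIRPB1 reads and 293 to 707 (median 412) in animals without, a fold of 0.793 (0.643 to 0.979, limma p = 0.0319 before and 0.868 after adjustment). CD163, a haemoglobin receptor, had a fold of 0.891, SIGLEC1, a sialic acid receptor, one of 1.14, and MRC1, the mannose receptor of these cells, one of 0.996 (0.830 to 1.20). Among 9 tested monocyte and neutrophil genes, the median was −0.07 and the smallest p were those of PLAC8 (fold 1.42), MNDA (0.861) and FPR1, a receptor of bacterial peptides (0.846). Of these genes S100A8 was at 0 in all 28 animals, while LYZ, lysozyme, had 75.8 to 166 normalized reads in animals with SIRPB1 reads and 66.6 to 199 in animals without, and MNDA and VCAN were likewise detected in every animal. The summed red blood cell genes were 0 to 83.0 normalized reads in animals with SIRPB1 reads and 0 to 31.6 in animals without. Among animals with SIRPB1 reads, the SIRPB1 value had r = −0.0185 with a microglial score (mean of centred log2 values, permutation p = 0.946), −0.114 with a perivascular macrophage score (p = 0.675), 0.0223 with TYROBP (p = 0.935) and 0.166 with reads per library (p = 0.540). Within cohort 4 (n = 6), r was −0.578 with the microglial score, −0.761 with the macrophage score, −0.206 with TYROBP and −0.0897 with reads per library.

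The genes of oligodendrocytes and myelin lay on one side. All 14 had positive differences, 0 passed, 6 had an unadjusted p under 0.05, where 4.58% of all tested genes did, and the median log2 difference was 0.32. ERMN, a cytoskeletal protein of myelin, had 3921 to 8914 normalized reads (median 5641) in animals with SIRPB1 reads and 3150 to 7538 (median 3947) in animals without, a fold of 1.36 (1.11 to 1.65, adjusted p = 0.868). CLDN11, the tight junction protein of myelin, had a fold of 1.39 (1.11 to 1.74) and MBP, myelin basic protein, one of 1.21 (0.951 to 1.53). Genes of 1 cell type are not independent of each other, so their number is no measure of support. The medians were positive in every cohort, with 10 of 14 genes higher in cohort 4, 14 in cohort 5, 13 in cohort 7a and 14 in cohort 7b. They stood at 0.22 in cohort 4, 0.70 in cohort 5, 0.18 in cohort 7a and 0.23 in cohort 7b.

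Lists of neurons next to the CeA had the largest medians, but without a common direction in the cohorts. The 11 striatal genes all had negative differences (median log2 −0.39), 2 of them with an unadjusted p under 0.05, the transcription factor FOXP1 (fold 0.736) and the phosphodiesterase PDE1B (0.781). BCL11B, another transcription factor, followed with 0.715. PENK, the precursor of enkephalin, which is also made in the CeA, had 1293 to 24439 normalized reads (median 4800) in animals with SIRPB1 reads and 1161 to 32856 (median 9773) in animals without, a fold of 0.570 (0.267 to 1.22). In cohort 7a, 9 of the 11 striatal genes were instead higher in animals with SIRPB1 reads. The 9 cortical and basolateral glutamatergic genes were split, with 5 positive and 4 negative differences and a median of 1.11. Their summed level had a median of 20374 normalized reads in animals with SIRPB1 reads and 20204 in animals without. The smallest p were those of TBR1, a transcription factor of cortical neurons (fold 3.72, 1.14 to 12.1), and SLC17A6, a vesicular glutamate transporter (3.49, 1.25 to 9.71). RORB, a nuclear receptor, was next by p (fold 0.901). In cohort 7a the median of the list was −0.11. Of 8 cholinergic and basal forebrain genes 7 had positive differences, with a median of 1.22. CHAT, which makes acetylcholine, had 0 to 1687 normalized reads (median 101) in animals with SIRPB1 reads and 0 to 1450 (median 18.4) in animals without, a fold of 4.2 (0.819 to 21.5). NGFR, a neurotrophin receptor, had a fold of 4.56 and SLC5A7, the choline transporter, one of 2.56. In cohort 4 the median of this list was −0.66. The part of adjacent tissue in the gene differences above was not tested.

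**Figure D5:**
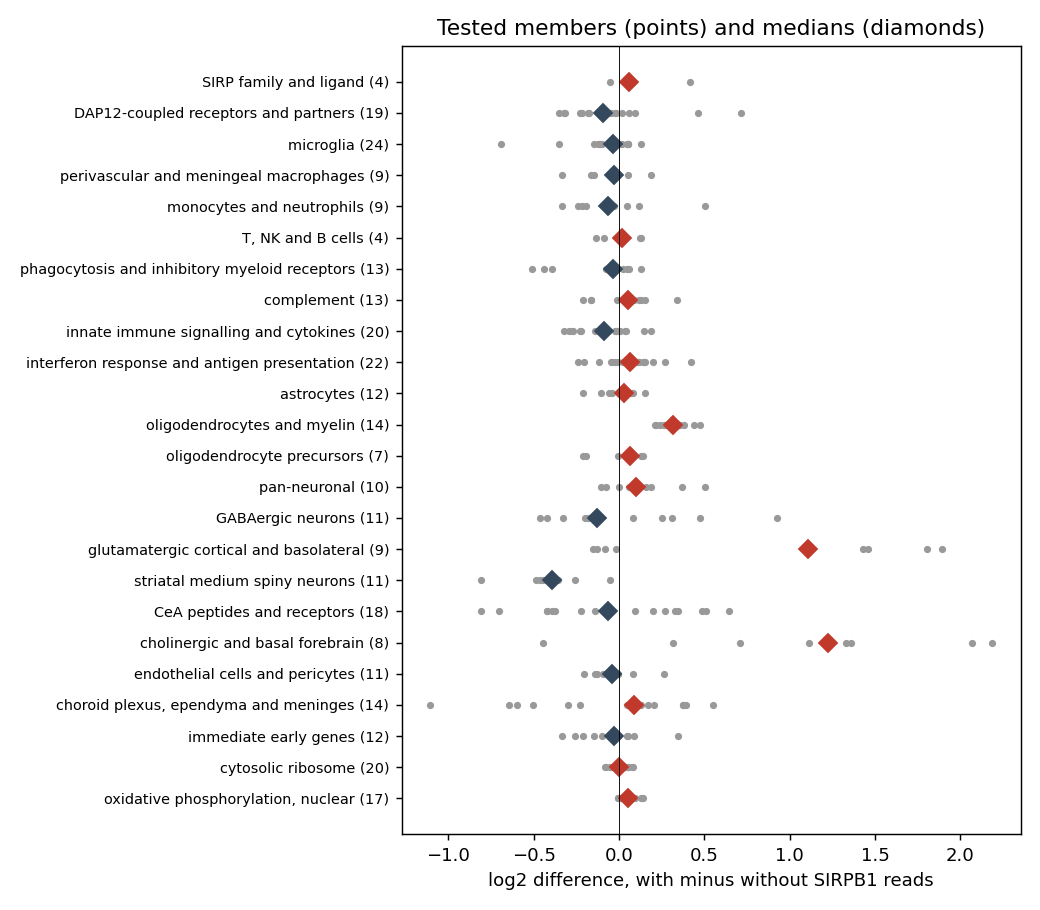
Log2 difference with minus without SIRPB1 reads for the tested members of each gene list (grey points) and their median (diamonds, red above 0 and dark below), with the number tested in brackets. Myelin genes lie above 0 with a median of 0.32, microglial genes around −0.03, and lists of adjacent neurons spread widest.

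The remaining lists had medians between −0.13 and 0.10, with 0 members called. The members named for each are among the 3 with the smallest p, and their folds are given as values. Complement genes had a median of 0.06 over 13 genes. CD55, which shields cells from complement, had 449 to 1106 normalized reads (median 622.5) in animals with SIRPB1 reads and 373 to 831 (median 516) in animals without, a fold of 1.27 (1.08 to 1.49, limma p = 0.00476 before and 0.868 after adjustment). CD46, a related regulator, had a fold of 0.892 and C5AR1, a complement receptor, one of 1.11. Inhibitory and phagocytic myeloid receptors had a median of −0.04 over 13, with the smallest p for the scavenger receptor MSR1 (fold 0.762), FCGR2B, an inhibitory antibody receptor (0.704), and SIGLEC10 (0.737). Innate immune and cytokine genes had −0.09 over 20, led by the Toll-like receptors TLR1 (0.857) and TLR5 (0.854) and their adaptor MYD88 (0.818). Interferon and antigen presentation genes had 0.06 over 22, with IFI6 at 1.15 and MX2 at 1.21. T, NK and B cell genes had 0.02 over 4, with CD8A at 0.913, CD247 at 0.943 and IL7R at 1.09.

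Among the other cells of the block, astrocyte genes had a median of 0.03 over 12, led by the glutamate transporter SLC1A2 (fold 0.866), the water channel AQP4 (1.11) and NDRG2 (1.06). Oligodendrocyte precursor genes had 0.07 over 7, led by the growth factor receptor PDGFRA (0.866), VCAN (0.874) and SOX10 (1.10). Pan-neuronal genes had 0.10 over 10, led by STMN2, a regulator of microtubules (1.42, 1.06 to 1.91), TUBB3, a neuronal tubulin (1.29, 1.02 to 1.63), and MAP2 (0.928). GABAergic genes had −0.13 over 11, led by the transcription factor DLX1 (1.39, 1.04 to 1.85), PVALB (1.90) and the peptide SST (0.747). CeA peptides and receptors had −0.06 over 18, led by the peptide CARTPT (1.40, 0.997 to 1.97), CRHR1, the receptor of corticotropin-releasing hormone (1.27), and PRKCD (0.763). Endothelial cells and pericytes had −0.04 over 11, led by CD93 (1.20), VWF (0.868) and TEK (0.909). Choroid plexus, ependyma and meninges had 0.09 over 14, led by CLIC6, a chloride channel protein at 0 to 33.5 normalized reads in animals with SIRPB1 reads and 2.47 to 30.3 in animals without (fold 0.465, 0.260 to 0.831), KL (0.707) and SLC6A20 (1.47). Immediate early genes had −0.03 over 12, led by JUNB (0.865), NR4A2 (1.27) and EGR3 (0.793). Ribosomal proteins had 0.00 over 20, with RPL11 at 1.06 and RPL18 at 0.948, and nuclear genes of oxidative phosphorylation had 0.06 over 17, led by COX6C (1.09), ATP5A1 (1.05) and COX5A (1.10).

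Exons other than those of SIRPB1 gave no call with limma when each exon had its own spread. Of 112705 exons, 0 (0%) had an adjusted p under 0.05 by limma, and 4981 (4.42%) had an unadjusted p under 0.05, 2.06% in the higher and 2.36% in the lower direction. An EYA2 exon of 84 bases (chr15:17383657-17383740) had the smallest p, with 6 to 20 normalized reads (median 10.5) in animals with SIRPB1 reads and 0 to 12 (median 5) in animals without. Its fold was 3.49 (2.25 to 5.41, adjusted p = 0.296), and 16 of 16 animals with SIRPB1 reads were above the mean of those without. Its median was above the filter of 10 normalized reads only in animals with SIRPB1 reads, the group where it is high. That fold is therefore no support for a difference. An exon of 74 bases in LAPTM4B, a lysosomal membrane protein, had a fold of 1.79, and one of 104 bases in CABLES1, a cyclin-dependent kinase adaptor, had 45 to 69 normalized reads in animals with SIRPB1 reads and 60 to 94 in animals without, a fold of 0.733. The next by p belonged to SGCB (fold 1.24), PRKDC (0.716), PLA2G16 (1.42), PIK3C3 (0.659), SEPT7 (1.58), KIF1C (1.35) and SPP1 (1.42). For relative exon use, limma with a spread per exon called 0 of 109212 exons (0%), and 4197 (3.84%) had an unadjusted p under 0.05, 2.06% higher and 1.78% lower. With limma's diffSplice, which uses 1 spread per gene, 104 of 109212 exons were called. In the fit with a spread per exon, the smallest p was that of an exon of 303 bases in CD86, a costimulatory receptor of myeloid cells. Its fold was 2.08 (1.58 to 2.74, limma adjusted p = 0.860). It had 6 to 18 normalized reads (median 10.5) in animals with SIRPB1 reads and 2 to 20 (median 5) in animals without. With medians this close to the filter of 10, that fold is no support for a difference. The others of the 10 smallest p besides the SIRPA exon and the EYA2 exon above lay in ANKMY2 (fold 0.653), R3HCC1L (0.806), PTMA (0.878), CD86 again (0.621), COL4A2 (0.707), GLTSCR1L (1.68) and POLR2M (0.891).

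The genes whose level ranked the animals most like SIRPB1 were sought among 12698 genes with a mean of at least 10 normalized reads, by Spearman's rho over the 28 animals. This is a description, since the SIRPB1 value also chose the groups, and the libraries and their cohorts are shared. That value was 0 to 1.30 in the animals without SIRPB1 reads and 19.3 to 99.5 in those with them. The rho therefore holds the split between the groups and is no separate support. The highest were CXorf58 (rho = 0.63), GNG11, a G protein gamma subunit (0.604), KAZALD1, a secreted matrix protein (0.592), CPLX4, a complexin (0.587), and C4orf27 (0.573). The lowest were LPO, lactoperoxidase (−0.665), C9orf131 (−0.638), KIAA1429, a subunit of the RNA methylation complex (−0.621), HSD17B13, a lipid droplet enzyme (−0.613), and VPS39, a lysosomal tethering subunit (−0.598). KAZALD1 had 19.9 to 48.1 normalized reads in animals with SIRPB1 reads and 14.4 to 25.8 in animals without, and LPO had 0 to 36.3 in animals with SIRPB1 reads and 25.5 to 63.0 in animals without, so both overlapped between the groups.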

How the data were processed

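Per the labels' protocols, the authors removed ribosomal RNA and sequenced strand-specific libraries, and name CASAVA, FastQC, STAR 2.3.0e and edgeR, per the submitters' processing notes. The gene values deposited are a signal, namely reads per gene scaled by an upper-quartile factor, and 100% of values lay within 0.02 of whole reads. The exon values deposited are a score, the same rounded to whole numbers. Of 30 columns in each table, 2 were not used here.

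Genes and exons that reached 10 normalized reads in 5 or more libraries entered the test, on log2(value + 1) with limma 3.58.1 (R 4.3.3, mean-variance trend), with cohort as a term, p-values two-sided and Benjamini-Hochberg adjusted, threshold 0.05. Means ± SD and counts of animals take no account of cohort. Relative exon use is the log2 value relative to the gene's other exons, in genes with at least 3 tested exons, and was added after seeing the data. edgeR 4.0.16 and DESeq2 1.42.0 were run on recovered reads. Correlations used 100000 resamples. The fits were tested on simulated data. In those of relative use, limma recovered 64.5% of 2-fold changes over 109212 exons. It made 8 false calls in unchanged genes and called 21 other exons of the changed genes. These simulated exons also varied independently and without a cohort effect. Each animal is a replicate. The named genes are the 8 higher and 8 lower with the smallest p, the neighbours, the SIRP family, up to 3 members of each of 25 lists with the smallest p, the 5 genes most and 5 least like SIRPB1, and the 10 exons with the smallest p in each exon fit. Some items that this rule takes are not reported here. Other genes named (members of the lists, SIRPA exons) were chosen after their values were seen. The groups, members and lists were chosen with earlier results of these data known. Alternatives were other pseudocounts, filters, scalings, terms, tools, cohorts alone and each library left out.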

Additional observations from a re-analysis of the deposited data

Results flagged for a closer look

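Of 61 sets of 4 to 10 animals examined, 4 held an animal far from the others, where chance gives about 1 in 20. Among the 7 HD animals, HD replicate 3 stood alone with 48.6 normalized reads of SIRPB1, the next value being 1.30. This restates the grouping, as it is the HD animal with SIRPB1 reads, and it belongs to cohort 5. Among animals with SIRPB1 reads of cohort 4, BD replicate 1 had 32.1 normalized reads of C4orf26, against a next value of 15.2. It is the shallowest library, in which 3 reads are worth 24.1 normalized reads. Among those of cohort 5, VHD replicate 2 had 16.7 of C4orf26, against a next value of 6.59. Among those of cohort 4, LD replicate 1 had 7216 normalized reads of FAM115A, against a next value of 5499.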

How the results depend on the processing

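No paired analysis was possible because each animal gave 1 library and belonged to only 1 of the groups. The count of 0 called genes was found in 44 of 46 alternatives, including edgeR, DESeq2 and each library left out. It was 1 with array weights and robust priors (IGFBPL1, log2 −0.46, adjusted p = 0.050) and 1 in cohort 7a alone (CD4, also the 1 listed gene called there, log2 −3.14). CD4 had 27.9 to 28.8 normalized reads in the 2 animals with SIRPB1 reads of that cohort and 156 to 369 in the 6 without. Its log2 difference was 1.66, 0.95 and 1.30 in cohorts 4, 5 and 7b, and its fold over all cohorts was 1.09. Genes at an unadjusted p under 0.05 numbered 147 to 1390 over these settings, 1279 without LD replicate 1, 289 without HD replicate 4 and 1190 with heavy or low drinking as a term. For exons, 1, 4, 13 and 4 of 112705 were called in cohorts 4, 5, 7a and 7b alone. For relative use it was 5, 21, 38 and 37 of 109212, and 104 with diffSplice. In each the cause was not tested. The log2 relative use of the SIRPA 354-base exon ran from −0.50 to −0.40 with each library left out. It was −0.49 with the drinking term, and in cohorts 4, 5, 7a and 7b alone −0.72, −0.15, −0.33 and −0.65. SIRPA as a gene turned to 0.0017 with the drinking term, 0.0020 with 4 categories and 0.12 in cohort 4. SIRPB2 turned to −0.061 with 4 categories, −0.0016 with weights and −0.29 and −0.12 in cohorts 7a and 7b, and ran from −0.021 (without HD replicate 2) to 0.157 with each library left out. CD47 turned to −0.0099 with no cohort term. PDYN turned to 0.20 in cohort 4, 0.59 in cohort 7a and 0.016 without HD replicate 4, and ran from −0.165 to 0.072 (without LD replicate 8) with each library left out. The correlation with the macrophage score was 0.0866, and with the SIRPA exon −0.461, without the 2 farthest animals. SIRPB1 rests on 8 to 139 reads per library in animals with SIRPB1 reads, so levels within that group carry wide counting error. With drinking as a term, the myelin median was 0.38.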
